A study of Rattus norvegicus with 23 samples.

Results

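The Period genes Per1, Per2 and Per3, the cryptochrome gene Cry2 and the genes of the repressors Bhlhe40 and Bhlhe41 were examined in the lungs of elderly rats. The 6 genes were chosen by name among the 23031 genes tested, as the repressing side of the circadian clock outside Cry1. Their spots were those carrying these names on the array, and the 10 probes of the 6 genes all passed the filter on dim signals. The animals were male F344 rats, aged 19 months at the start of inhalation, which breathed either filtered air (control) or a TiO2 nano-aerosol at 10 mg/m3 (exposed) through the nose only, 6 h a day and 5 days a week, over 4 weeks. They were killed at the end of exposure (D0) or 28 days later (D28). Total RNA of the accessory lobe was hybridized on Agilent single-colour arrays, with 1 rat on each of 23 arrays. The arrays of D0 came from 6 control and 5 exposed animals, and those of D28 from 6 of each. The source label of the exposed rats of D28 reads day 0, whereas their titles and descriptions give 28 days, which was followed here. The paper states 6 rats per group, and the arrays available here covered 5 of the exposed rats of D0, all of which were used. The control rats of D28 were the older ones at death, so that day, age and killing session cannot be told apart. The sources used here give no hour of killing for any animal. Whether the groups differed in hour is therefore unknown, and hour cannot be told apart from day or exposure here.

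The circadian clock is a feedback loop of transcription that runs in most cells, lung epithelium included. The factors CLOCK or NPAS2 with ARNTL (BMAL1) bind E-boxes and switch on the Period and cryptochrome genes, whose proteins return to the nucleus and repress that same complex. BHLHE40 and BHLHE41 (DEC1 and DEC2) are basic helix-loop-helix repressors that bind the same E-boxes. Per1 is also an acute target of glucocorticoids and of cAMP signalling, and Bhlhe40 of hypoxia. REV-ERBα (Nr1d1) represses Arntl, and Dbp is a well-known output gene driven from E-boxes. Transcripts of these genes therefore rise and fall over the day, each at its own hour.

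The first 30 bases of the array probes are shown, 5′ to 3′, because the probes of Per3 and Bhlhe41 did not give the same answer, and the results below return to them by name.
Per1 A_43_P14090: aggtgggacccaggtgttctcagctctacc
Per1 A_44_P114034: cagctgcctcaggccctcgatgtaacggct
Per2 A_42_P708593: tgttaactgctaagaagttgacttcctagg
Per3 A_44_P1106297: tgtttctgctgagacatctgcagacgatcc
Per3 A_44_P407318: ttttcttatttggtgagattccacatattt
Per3 A_64_P119407: agatgtcccaccctctccaggtcatgtgga
Cry2 A_44_P1085158: tgtttctcctacagtgtgtgaatacttacc
Bhlhe40 A_43_P12768: ttttgtgactagcttactacggaaccgaaa
Bhlhe41 A_43_P15357: gaaatgtttgcactttggtcacaatgcttc
Bhlhe41 A_44_P463858: caggccgacttggatgcgttccactcgggg

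In build rn4, as the array files give it, the probes of Per1 lay at chr10:55869174-55869233 and, over 585 genomic bases for a probe of 60, at chr10:55867840-55868424. The probe of Per2 lay at chr9:90645610-90645669 and that of Cry2 at chr3:76800939-76800998. The probes of Per3 lay at chr5:168152779-168152838, chr5:168153930-168153989 and chr5:168184060-168184119, the last the farthest from the others. The probe of Bhlhe40 lay at chr4:144145007-144145066, and those of Bhlhe41 on the unplaced part of the same chromosome at chr4_random:1955459-1955518 and chr4_random:1953325-1953384. No annotation of this build was used, so exons and untranslated regions were not assigned. Of the 10 probes, 8 were well above background on all 23 arrays, whereas the Per3 probes A_44_P1106297 and A_44_P407318 were so on 2 and 0 arrays. None was saturated.

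Levels are given as log2 normalized signal, and a difference as log2 fold change (FC). A gene counted as called when its adjusted p (limma, Benjamini-Hochberg over all genes) was below 0.05 and its FC at least 1.5 in either direction. Among all genes, 411 were called between exposed and control rats on D0 and 174 on D28. Lung markers were high on every array, with surfactant gene Sftpc at a median processed signal of 349948. No marker of another cell type on the lists was called in any comparison, although the mean log2 level of the 4 macrophage markers was 7.93 to 8.37 in control and 8.36 to 8.75 in exposed rats on D0, and that of the 4 endothelial markers 12.2 to 12.3 and 11.8 to 12.1. On the same day the 4 type II pneumocyte markers had mean levels of 15.76 to 15.97 in control and 16.00 to 16.14 in exposed rats, and the 3 type I markers 14.24 to 14.50 and 13.94 to 14.24, without overlap. On D28 the 4 measured of 5 cardiac muscle markers had 8.94 to 9.49 in control and 8.69 to 8.91 in exposed rats, again without overlap. Among their defining genes, Marco of macrophages was well above background on 2 arrays and Mpo of neutrophils on 6. The 4 skeletal muscle markers reached a mean level of 10.76 in 1 control rat of D0 and 10.69 in 1 exposed rat of D28. The part of these cell types in the results was not tested, and in whole lobes fewer cells of a type and less RNA per cell cannot be told apart.

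**Figure D1:**
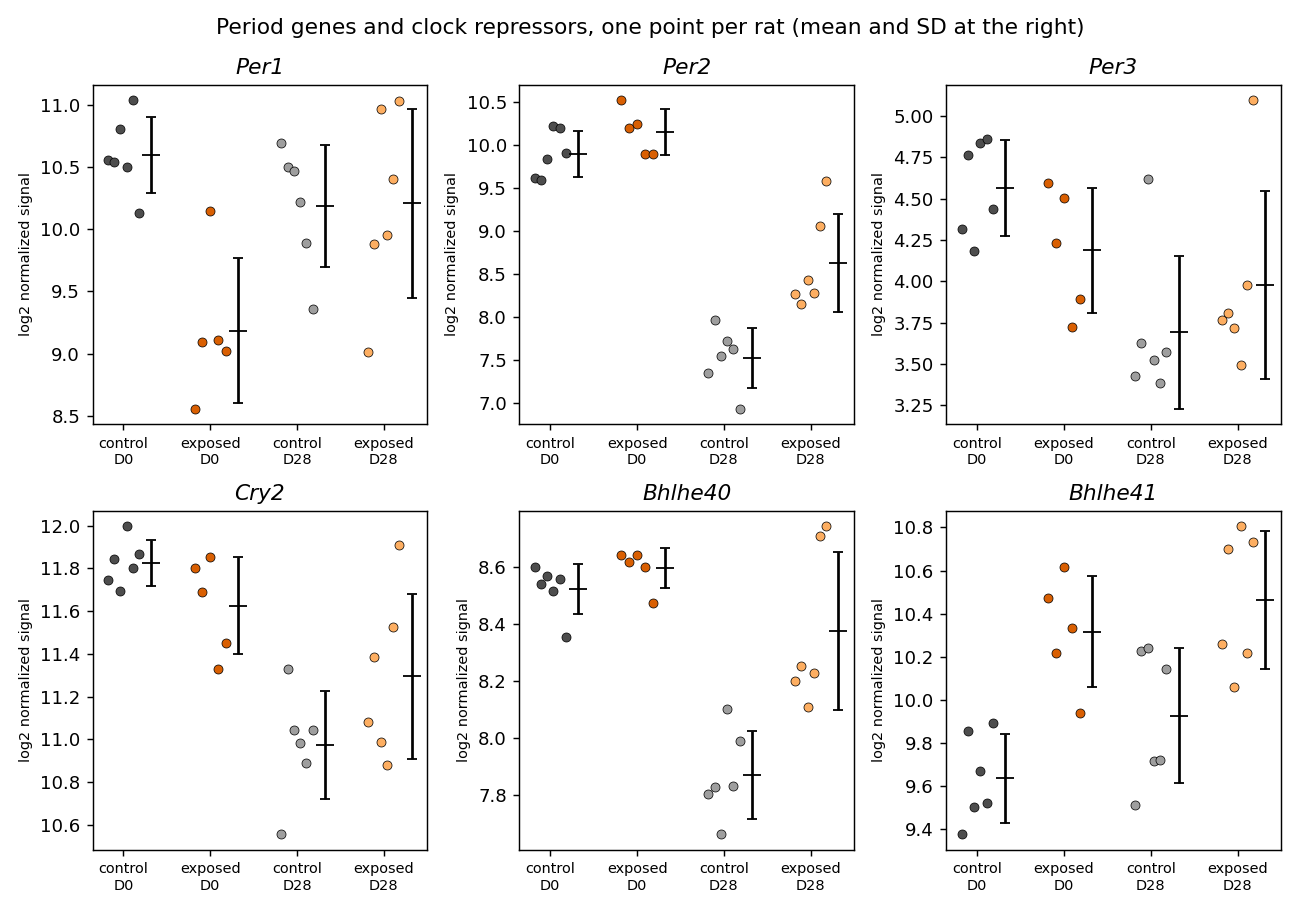
Log2 normalized signal of the 6 genes in each rat (1 point per rat), by group, with the group mean and SD at the right of the points and a separate vertical scale for each gene. All control rats of D28 lay below all control rats of D0 for Per2, Cry2 and Bhlhe40, and 4 of 5 exposed rats of D0 lay below all controls of D0 for Per1.

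On D0, Per1 was lower and Bhlhe41 higher in exposed than in control rats, and the other 4 genes did not pass the test. These 2 of 6 genes compare with 1.78% of all genes called, made up of 1.09% higher and 0.695% lower. The groups did not overlap for 1 of 6 genes, Bhlhe41, against 4.31% of all genes. Over the 6 genes the median log2 FC was -0.06, with 3 higher and 3 lower, and over all genes it was -0.00077.

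Per1, the Period gene with the most rapid response to outside signals, had in control rats of D0 a lowest level of 10.13, a median of 10.55 and a highest of 11.04. In the 5 exposed rats its levels were 8.56, 9.10, 10.15, 9.11 and 9.02. The third exposed rat lay just above the lowest control rat, and the other 4 lay below every control rat. The group means were 10.60 ± 0.31 (SD, n = 6) and 9.19 ± 0.58 (SD, n = 5), a log2 FC of -1.41 ± 0.33 (SE), or 2.66-fold lower, with an adjusted p of 0.0182 in limma. Its 95% interval ran from -2.09 to -0.73. Both probes gave the difference, at -1.43 with an adjusted p of 0.0253 and -1.39 with an adjusted p of 0.0398 when all probes were fitted separately, and rat by rat they deviated together from the group means (Pearson r = 0.83, Spearman rho = 0.78, 23 arrays). Within slides, the difference was between -1.98 and -1.60 on 3 slides and 0.01 on the fourth, which held the third exposed rat and 1 control rat. Without exposed replicate 1 the log2 FC was -1.25 and the adjusted p 0.0590, which is no call.

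Bhlhe41, a repressor at E-boxes also known for its role in sleep length, ranged in control rats of D0 from 9.38 over a median of 9.60 to 9.89. The 5 exposed rats had 10.47, 10.22, 10.62, 10.33 and 9.94, and the lowest of them was above the highest control. The means were 9.64 ± 0.21 (SD, n = 6) and 10.32 ± 0.26 (SD, n = 5), a log2 FC of 0.68 ± 0.17 (SE) with an adjusted p of 0.0285 in limma, and the difference was 0.49 to 0.88 within 4 slides. The probes differed in size, and rat by rat they deviated together only weakly (r = 0.27, rho = 0.34, 23 arrays). A_43_P15357, the brighter, was higher in exposed rats by 0.41 ± 0.10 (SE, adjusted p = 0.0383), and its levels of 12.97 to 13.31 in exposed rats did not meet those of 12.56 to 12.88 in controls. A_44_P463858, which the 22 older array files do not name Bhlhe41, was higher by 0.95 ± 0.29 (SE, adjusted p = 0.117). The gene's call thus rested on the mean of a small difference and a large one, and neither probe alone reached both limits. It was also lost, with adjusted p between 0.0523 and 0.0840, without control replicate 1, 3, 4 or 5 or without exposed replicate 1, 3 or 4. With slide as a block, and without control replicate 4 of D28, the log2 FC was 0.64 ± 0.08 (SE, adjusted p = 0.00022, limma).

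**Figure D2:**
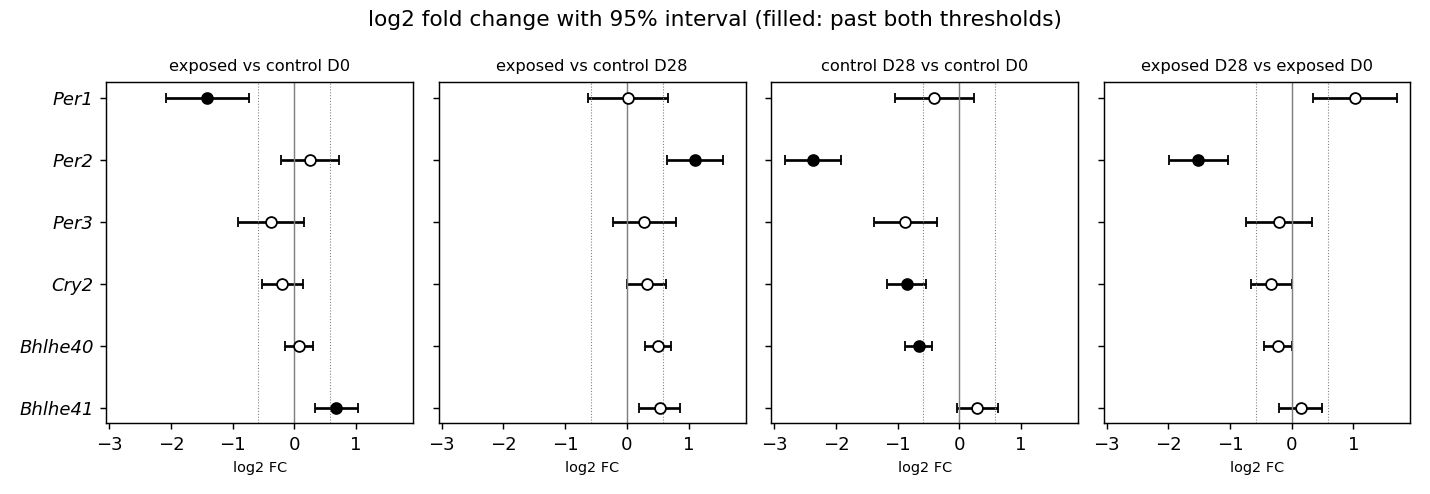
Log2 FC of the 6 genes in 4 comparisons (horizontal axes, log2) with 95% intervals. Filled points passed both the adjusted p and the FC limit, and dotted lines mark that limit. Per2 was called in 3 of the 4 panels and Per1 in the first alone.

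Per2, Per3, Cry2 and Bhlhe40 differed by less on D0. Per2, the Period gene whose product is a main brake on CLOCK and ARNTL, was at 9.90 ± 0.27 (SD, n = 6) in control and 10.15 ± 0.26 (SD, n = 5) in exposed rats, a log2 FC of 0.25 with a 95% interval from -0.22 to 0.73 (adjusted p = 0.839, limma). Cry2, a cryptochrome that holds back CLOCK and ARNTL together with the PER proteins, had a log2 FC of -0.20 with an interval of -0.53 to 0.13. Bhlhe40 had 0.07 with an interval of -0.16 to 0.30, the narrowest of the 6. Per3, a Period protein that is not needed for the rhythm itself, had -0.38 over its 3 probes, with an interval of -0.91 to 0.16. A_64_P119407, its only probe well above background on all arrays, had -0.16 ± 0.21 (SE).

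On D28, Per2 was the gene of the 6 that was called, and it was higher in exposed rats. This 1 of 6 stands beside 0.756% of all genes called, and 0.486% called as higher. By adjusted p without the FC limit there were 2 of 6, Bhlhe40 besides Per2, and 1.32% of all genes. All 6 genes had a positive log2 FC, with a median of 0.41, where 48.9% of all genes were positive. The groups did not overlap for 2 of 6, Per2 and Bhlhe40, against 1.22% of all genes.

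Control rats of D28 had Per2 levels from 6.94 over a median of 7.59 to 7.97, and exposed rats from 8.15 over 8.36 to 9.58. Exposed replicates 5 and 6, at 9.06 and 9.58, stood above the other 4, which lay between 8.15 and 8.44. The means were 7.53 ± 0.35 (SD, n = 6) and 8.63 ± 0.57 (SD, n = 6), a log2 FC of 1.10 ± 0.22 (SE), or 2.15-fold higher, with an adjusted p of 0.0123 in limma. Within the 3 slides that held both groups the difference was 1.18 to 1.25. The same difference had an adjusted p of 0.128 in limma when the arrays of D28 were fitted without those of D0. That fit had fewer residual degrees of freedom and a larger SE of 0.26. On D0 the SD of Per2 was smaller, 0.27 in control and 0.26 in exposed rats, and the main fit shared 1 spread over all 4 groups.

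Bhlhe40 of control rats on D28 ranged from 7.66 over a median of 7.83 to 8.10, and that of exposed rats from 8.11 over 8.24 to 8.74. The highest control and the lowest exposed rat were nearly level, and exposed replicates 5 and 6, at 8.71 and 8.74, were again the highest. The log2 FC was 0.51 ± 0.11 (SE), with an adjusted p of 0.0173 in limma that passed, and a FC of 1.42 that stayed below the limit of 1.5.

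Bhlhe41 had a log2 FC of 0.54 ± 0.16 (SE) on D28, which missed the threshold (adjusted p = 0.118, limma). Within the 3 slides that held both groups the difference was 0.52 to 0.56. With slide as a block, and without the control rat of D28 alone on its slide, the log2 FC was 0.53 ± 0.08 (SE). In that fit Bhlhe41 passed by adjusted p (0.0028, limma) but stayed below the FC limit. Its levels were 9.52, 9.93 and 10.24 (lowest, median, highest) in control rats and 10.06, 10.48 and 10.81 in exposed rats, and the groups overlapped. For the brighter probe A_43_P15357 they did not overlap, with 12.26 to 12.64 in controls and 12.88 to 13.31 in exposed rats, a log2 FC of 0.56 ± 0.10 (SE) and an adjusted p of 0.00669 in the fit over all probes. For A_44_P463858 the log2 FC was 0.51 ± 0.28 (SE, adjusted p = 0.610). The brighter probe was thus higher in every exposed rat than in every control of the same day on D0 and on D28, with a FC under 1.5 on both days.

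**Figure D3:**
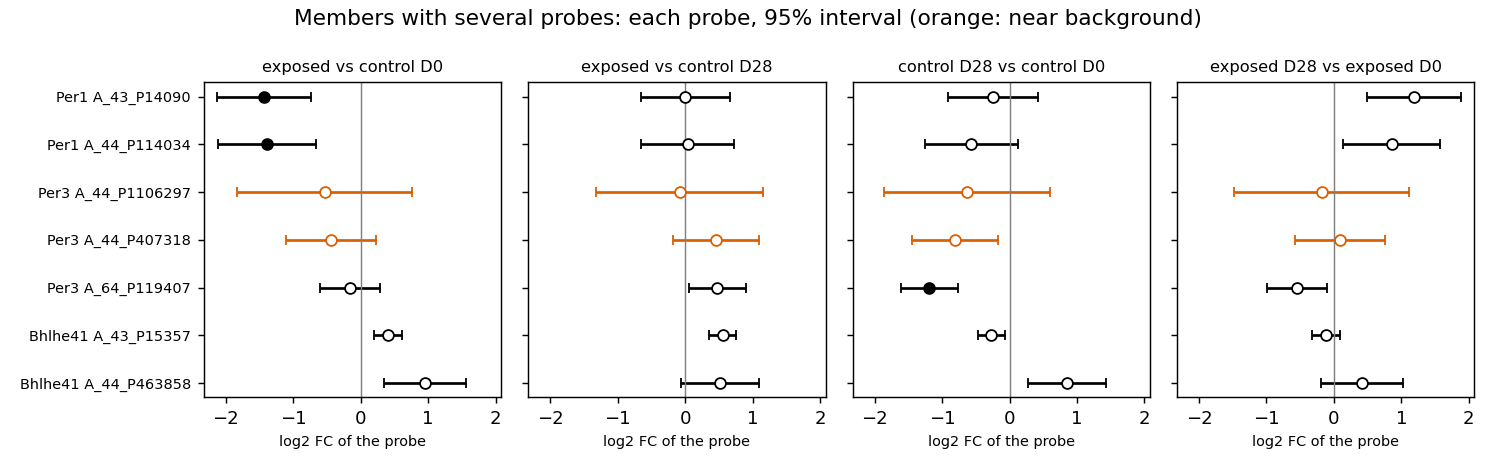
Log2 FC of each probe of Per1, Per3 and Bhlhe41 with 95% intervals in 4 comparisons (horizontal axes, log2), when probes were fitted separately. Orange marks the 2 Per3 probes near background, and filled points passed both limits. The probes of Per1 lay side by side, and those of Bhlhe41 lay on opposite sides of 0 in control rats of D28 against D0.

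Per1, lower in exposed rats on D0, had on D28 a log2 FC of 0.02 and a wide 95% interval from -0.63 to 0.66. Its levels in control rats were 9.36, 10.35 and 10.69 (lowest, median, highest) and in exposed rats 9.01, 10.18 and 11.04, the widest spread of the 4 groups (SD 0.76, n = 6). Cry2 was higher by 0.32 ± 0.15 (SE, adjusted p = 0.444) and Per3 by 0.28 ± 0.25 (SE, adjusted p = 0.762), neither past the threshold.

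The exposure effect on D28 minus that on D0 was called for 0 of 6 genes in limma, where 0.0304% of all genes were. At an unadjusted p below 0.05 there were 4 of 6, Per1, Per2, Cry2 and Bhlhe40, where 3.44% of all genes passed. The difference was 1.43 ± 0.45 (SE) for Per1, with an unadjusted p of 0.0045 and an adjusted p of 0.822, and 0.85 ± 0.32 (SE) for Per2. It was 0.43 to 0.66 for Bhlhe40, Cry2 and Per3 and -0.14 ± 0.23 (SE) for Bhlhe41. A difference between the days was thus not established for any of the 6 genes, Per1 included. By contrast Cry1, the other cryptochrome, had a difference of -1.67 (adjusted p = 0.000233), and Nr1d1 and Dbp, at 4.49 and 3.91, were among the 7 genes called.

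Control rats of D28 and of D0 shared filtered air and differed in day, age and killing session together. Between them, 3 of the 6 genes were called and all 3 were lower on D28: Per2, Cry2 and Bhlhe40. Of all genes, 0.608% were called in either direction and 0.221% as lower. The same 3 of 6 did not overlap between the groups, against 1.62% of all genes. Over the 6 genes the median log2 FC was -0.75, and 5 were lower.

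Per2 showed the largest change of the 6 in any comparison. Its control levels were 9.60, 9.87 and 10.22 (lowest, median, highest) on D0 and 6.94, 7.59 and 7.97 on D28, and every rat of D28 lay below every rat of D0. The log2 FC was -2.37 ± 0.22 (SE), or 5.16-fold lower, with an adjusted p of 1.65e-06 in limma, which ranked it 6 by p among 23031 genes. Within 3 slides it was -2.97 to -1.84.

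Cry2 levels were 11.69, 11.82 and 11.998 in control rats of D0 and 10.56, 11.01 and 11.33 in those of D28, without overlap. The log2 FC was -0.85 ± 0.15 (SE, adjusted p = 0.00552), or 1.80-fold lower. Bhlhe40 had levels of 8.35, 8.55 and 8.60 on D0 and 7.66, 7.83 and 8.10 on D28, again without overlap. Its log2 FC was -0.66 ± 0.11 (SE, adjusted p = 0.00197), and the FC of 1.57 stood close to the limit. With normexp background correction the log2 FC was -0.53 and with the deposited table -0.57, which are no calls.

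Per3 had a log2 FC of -0.88 ± 0.25 (SE) as the mean of its probes, with an adjusted p of 0.109 in limma. Its well-detected probe A_64_P119407 had levels of 7.54 to 8.10 in control rats of D0 and 5.95 to 7.23 in those of D28. These did not overlap, and the log2 FC of that probe was -1.19 ± 0.20 (SE, adjusted p = 0.00444). The probes A_44_P1106297 and A_44_P407318, near background, had -0.63 ± 0.59 (SE) and -0.81 ± 0.30 (SE). Rat by rat, A_64_P119407 did not follow A_44_P1106297 (r = -0.38, rho = -0.37) or A_44_P407318 (r = 0.04, rho = -0.01, 23 arrays). Without control replicate 3 of D28 the gene's log2 FC was -1.06 and its adjusted p 0.0329, and without exposed replicate 6 of D28 its adjusted p was 0.0362, so that Per3 was then called too.

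Per1 did not pass between the control groups, with a log2 FC of -0.41 ± 0.31 (SE, adjusted p = 0.620) and an interval of -1.05 to 0.24. Bhlhe41 had 0.29 ± 0.16 (SE, adjusted p = 0.450), but its probes had opposite signs. A_43_P15357 was at -0.27 ± 0.10 (SE) and A_44_P463858 at 0.85 ± 0.28 (SE), and neither passed over all probes (adjusted p = 0.235 and 0.196). No direction is given for Bhlhe41 between the days for that reason.

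In exposed rats, which share no array with the control comparison, Per2 was again lower on D28 than on D0, and it was the only gene of the 6 called, where 0.352% of all genes were and 0.139% as lower. Its levels of 9.89 to 10.52 on D0 and 8.15 to 9.58 on D28 did not overlap, which was true of 1 of 6 genes and of 1.21% of all genes. The log2 FC was -1.52 ± 0.23 (SE, adjusted p = 0.00132), and -2.09 to -1.15 within 4 slides. Per1 had 1.02 ± 0.33 (SE, adjusted p = 0.288), and on the slides it was 1.58 and 1.94 on 2 of them and -0.05 and -0.26 on the other 2. Cry2 had -0.33 ± 0.16 (SE), Bhlhe40 -0.22 ± 0.11 (SE), Per3 -0.21 ± 0.26 (SE) and Bhlhe41 0.15 ± 0.17 (SE), none past the threshold. With the exposed arrays alone, Per2 kept its log2 FC and had an adjusted p of 0.0744.

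The order of the groups differed among the 6 genes. For Per2 it ran from control D28 over exposed D28 to control D0 and exposed D0. Of the neighbours in that order only the control and exposed rats of D0 lay within each other's spread. The highest exposed rat of D28, at 9.58, was nearly level with the lowest control rat of D0, at 9.60. Cry2 and Bhlhe40 had the lowest means in control D28 and the next in exposed D28, with D0 above, but for Cry2 all neighbouring groups overlapped, and for Bhlhe40 all except control D28 and exposed D28. Per1 had its lowest mean in exposed D0, and its other 3 groups, at 10.19 to 10.60, overlapped. For Bhlhe41 the order differed between its probes, and exposed rats of both days overlapped. Per3, from 3.69 in control D28 to 4.57 in control D0, overlapped between all neighbouring groups.

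**Figure D4:**
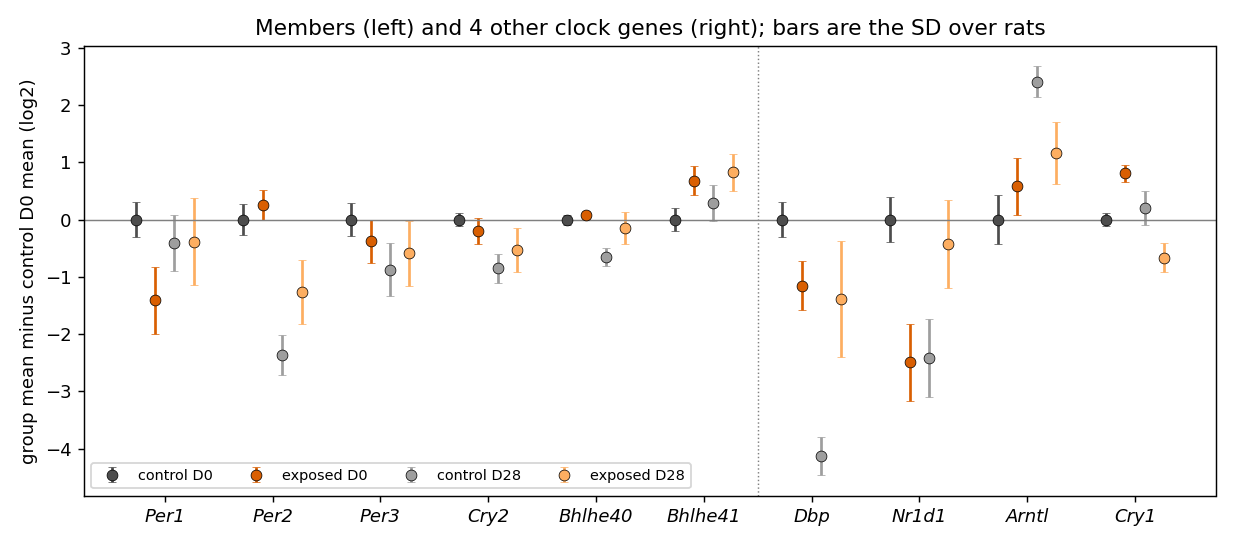
Group mean minus the control D0 mean (vertical axis, log2) for the 6 genes and, right of the dotted line, Dbp, Nr1d1, Arntl and Cry1. Points are group means and bars the SD over rats. The lowest point of Per2, at -2.37, and that of Dbp, at -4.13, are the control rats of D28.

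The other clock genes give the setting. Of all genes, 1.78% were called on D0, 0.756% on D28, 0.608% in control rats between the days and 0.352% in exposed rats between the days. The counts of clock genes and output factors below stand beside these shares. Of 13 activators and loop genes, 2 were called higher and 1 lower on D0, 2 higher and 3 lower on D28, 3 higher and 3 lower in control rats of D28 against D0, and 2 higher and 2 lower in exposed rats of D28 against D0. On D0 these included Nr1d1 at a log2 FC of -2.50 and Cry1 at 0.81, and on D28 they were Nr1d1 at 2.00, Arntl at -1.25, Nr1d2 at 1.11, Npas2 at -1.02 and Cry1 at -0.87. In control rats of D28 against D0, Npas2 and Arntl, partners in the complex that switches Period genes on, were higher by 2.78 and 2.41, and Nr1d1 was lower by a log2 FC of -2.42. Nr1d2 was lower as well (-1.48) and Nfil3 higher (0.79). Ciart was called too, but it was well above background on 1 array, so no fold is given. In exposed rats of D28 against D0, Npas2 was at 2.15, Nr1d1 at 2.07 and Cry1 at -1.47. The control comparison and the exposure comparisons share control arrays.

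Of 7 output factors, none was called on D0 and only Dbp on D28, at 2.75. In control rats of D28 against D0, 4 of 7 were lower (Dbp at -4.13, Hlf at -1.56, Tef at -1.44 and Wee1 at -0.76) and Lonrf3 was higher at 0.75. In exposed rats only Wee1, at -0.68, was called. No gene of the 17 kinases, ligases and related factors that act on PER and CRY proteins was called in any comparison, and their median log2 FC lay between -0.08 and 0.08. The medians over all genes lay between -0.014 and -0.00077.

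Genes that respond to signals also known to act on Per1 or Bhlhe40 were counted from 3 lists. The counts stand beside 1.09% of all genes called higher and 0.695% called lower on D0. For D28 the share called in either direction was 0.756%, and for control rats of D28 against D0 it was 0.608%. Of 17 measured glucocorticoid-induced genes, a class to which Per1 belongs, 3 were lower and 3 higher on D0. Zbtb16 was at -1.99, Lcn2 at 1.65, Angptl4 at 1.09 and Mt2A at 1.00, and Klf9 (-0.86) and Errfi1 (-0.68), named after their values were seen, were the others. Lcn2 is also an acute-phase gene and Mt2A a metal-binding gene. On D28, 2 of 17 were lower, Zbtb16 at -2.23 and Fkbp5 at -1.02, and in control rats of D28 against D0, 3 were higher, Pdk4 at 1.44, Angptl4 at 1.11 and Cdkn1a at 0.89. Of 20 immediate early and CREB-responsive genes, 2 were higher on D0, Nr4a3 at 0.98 and Fosl1, which was well above background on 0 of 6 control and 3 of 5 exposed arrays and has no fold here. None was called in the other comparisons. Of 15 hypoxia-induced genes none was called by exposure, and Adm, a peptide of the vessel wall, was higher in control rats of D28 than of D0 at 0.91. What part these have in the levels of Per1 or Bhlhe40 was not tested.

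The promoters of Per2, Cry2 and Bhlhe40, the genes called lower in control rats of D28 against D0, are shown. That of Bhlhe41, of the same family as Bhlhe40 but not called there, is shown too. The E-box is where activator and repressor meet, and the windows of Per1 and Per3, without a match to it, are not printed. Each is the stretch of 250 bases before the start in RefSeq on GRCr8, read in the gene's direction, at chr9:99496994-99497243 (minus strand) for Per2, chr3:98860438-98860687 (minus) for Cry2, chr4:143174200-143174449 (plus) for Bhlhe40 and chr4:180569356-180569605 (minus) for Bhlhe41. Capitals mark an E-box (CACGTG) or an E′-box (CACGTT, or AACGTG on the other strand).
Per2: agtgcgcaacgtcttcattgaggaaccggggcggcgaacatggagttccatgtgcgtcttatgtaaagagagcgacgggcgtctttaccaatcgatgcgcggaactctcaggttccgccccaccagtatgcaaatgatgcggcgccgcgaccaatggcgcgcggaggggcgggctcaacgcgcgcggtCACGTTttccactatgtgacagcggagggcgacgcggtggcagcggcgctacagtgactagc
Cry2: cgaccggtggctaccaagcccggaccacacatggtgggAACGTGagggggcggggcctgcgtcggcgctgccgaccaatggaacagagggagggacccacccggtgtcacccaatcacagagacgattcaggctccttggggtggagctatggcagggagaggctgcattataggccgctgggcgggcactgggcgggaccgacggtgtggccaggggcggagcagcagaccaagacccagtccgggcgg
Bhlhe40: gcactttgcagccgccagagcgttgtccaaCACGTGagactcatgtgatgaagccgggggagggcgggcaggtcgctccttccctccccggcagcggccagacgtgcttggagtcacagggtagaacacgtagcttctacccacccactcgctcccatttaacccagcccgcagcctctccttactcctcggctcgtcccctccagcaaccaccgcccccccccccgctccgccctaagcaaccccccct
Bhlhe41: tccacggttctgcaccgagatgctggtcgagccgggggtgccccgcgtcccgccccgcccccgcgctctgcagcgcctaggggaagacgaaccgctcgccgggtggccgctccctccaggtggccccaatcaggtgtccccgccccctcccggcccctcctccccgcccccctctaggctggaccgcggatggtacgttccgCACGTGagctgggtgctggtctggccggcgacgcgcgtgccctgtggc

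Bhlhe40 and Bhlhe41 held an E-box 220 and 48 bases before the start, and Per2 and Cry2 an E′-box 62 and 212 bases before it. On either strand, CACGTG was present in 5.59% and CACGTT in 4.07% of 33469 RefSeq promoters of that length. The windows of Per1 and Per3 held neither, and Per3 held TGACG, the core of a cAMP response element and present in 18.2% of promoters, 164 bases before the start. Yet the well-detected Per3 probe A_64_P119407 was also lower in control rats of D28 against D0, at -1.19 (adjusted p = 0.00444, limma). Whether the matches go with the levels was not tested. AGGTCA, the core of the REV-ERB site and present in 14.1%, was found in none of the 6. These are matches of letters and not measured sites, and no match in these windows says nothing of sites elsewhere.

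Rats of the same group differed, and Per2 and Cry2 deviated together. As a description over 23 arrays, their deviations from the group means had Pearson r = 0.71 and Spearman rho = 0.59. Without the 2 arrays farthest from the median of Per2, exposed and control replicate 6 of D28, r was 0.68. Per3, as the mean of its probes, had r = 0.73 with Cry2 and 0.64 with Per2. Its well-detected probe A_64_P119407 had r = 0.012 with Cry2 and 0.075 with Per2, so that these values come from the probes near background. Bhlhe40 followed Dbp (r = 0.82, rho = 0.78), and Per2 did so at r = 0.67 and rho = 0.59. For Bhlhe40 and Dbp r was 0.66 without the 2 arrays farthest from the median of Bhlhe40, exposed replicates 5 and 6 of D28. Exposed replicates 5 and 6 of D28 were the highest of their group for Per2, Bhlhe40, Cry2 and Dbp alike, and part of these correlations lies in them. Per1 had r from -0.05 to 0.47 against the other 5.

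**Figure D5:**
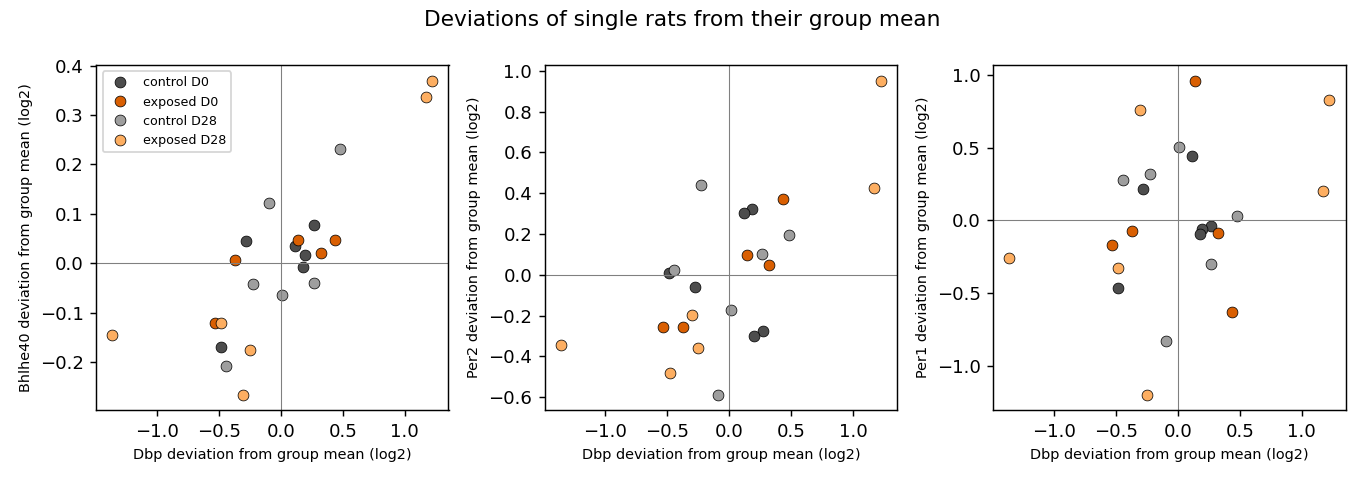
Deviation of each rat from its group mean (log2) for Bhlhe40, Per2 and Per1 on the vertical axes against Dbp on the horizontal axis, 23 rats. Bhlhe40 lies along a line with Dbp (r = 0.82), and the upper right points of the first panel are 2 exposed rats of D28. Per1 does not line up with Dbp (r = 0.28).

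Among all named genes outside the 6, those most like each of them in these deviations were the following. Per1 was most like Alas1, the first enzyme of haem synthesis (r = 0.78, rho = 0.74), then Ch25h (r = 0.78) and Ddit4 (r = 0.78), a stress gene that glucocorticoids induce, and least like Ifnl3 (r = -0.73). Per2 was most like LOC100910483 (r = 0.85, rho = 0.84), Rad52 (r = 0.81) and the kinase gene Wee1 (r = 0.81), itself on the list of outputs, and least like LOC108351703 (r = -0.83). Bhlhe40 was most like Rasd2 (r = 0.87, rho = 0.85), then Dbp and Dmrtc1b (r = 0.79), and least like Mcub (r = -0.73). For Cry2 these were LOC102552996 (r = 0.84, rho = 0.88), LOC102553927 (r = 0.84) and Bche (r = 0.83), and Fam163b (r = -0.83).

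For Bhlhe41 the likeness lay in the dimmer probe. Hgf, a growth factor of the mesenchyme, had r = 0.95 and rho = 0.93 with the gene, 0.94 with A_44_P463858 and 0.42 with A_43_P15357. LOC680039 and Shld2 followed at 0.94 and 0.93, and Egln3, a hypoxia-induced hydroxylase, was least like it at r = -0.94, with -0.92 and -0.44 for those probes. Bhlhe41 itself lay above its group mean on every array of slides 2 and 4, by 0.16 to 0.34. On the other slides its deviation ran from -0.41 to 0.03. What part the slides have in this likeness was not tested. For Per3 the most similar genes were Herpud1 (r = 0.84, rho = 0.79), Tp53bp2 (r = 0.82) and Ate1 (r = 0.81), and the least similar Tmc8 (r = -0.84). The well-detected Per3 probe had 0.02, -0.17, -0.12 and 0.36 with these 4, so the likeness came from the probes near background. These were the extremes of 23031 genes over 23 arrays that share slides and scans.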

How the data were processed

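The authors extracted RNA with a column kit, labelled it with Cy3, scanned the arrays and deposited the intensities of every spot from Agilent Feature Extraction (version 11.0.1.1 per the labels, 12.0.1.1 in the header of 1 file), together with a table of all 23 arrays that holds quantile normalized intensities without background correction. The processed signal is background corrected and not normalized between arrays. From it, control spots were left out, outlier spots set missing, and probes kept when above the 95th percentile of 308 negative control spots on at least 5 arrays (40420 of 45598 probes). Log2 values were quantile normalized and averaged over spots, then over the probes of a symbol, where 29 genes with a missing value were dropped. Gene names came from the file of the later software version. A mean for each of 4 groups was fitted with limma 3.58.1 in R 4.3.3, with 19 residual degrees of freedom and no batch term, and p values were adjusted over 23031 genes. The procedure was tested on simulated shifts.

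All 6 genes were named in every comparison. Arntl, Nr1d1, Cry1 and Dbp were always given, and of the other lists up to the 4 called genes with the largest FC, except that 1 gene is not reported here. For likeness, the 3 highest and the lowest correlation were taken. The 6 genes, the lists and the tests were chosen with earlier results of these data known. Slides were taken from the array barcodes, and each of 4 slides held 3 or 4 of the groups. The alternatives were other normalizations, background corrections, filters, probe rules, variance models, thresholds, blocks and the fits without 1 array. Array intensities have no read depth, and precision was limited by the 5 or 6 rats of a group. Spots well above background were 69.5% to 77.9% of an array. Arrays stand for separate rats, as the labels describe them.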

Additional observations from a re-analysis of the deposited data

Results flagged for a closer look

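In 4 of 24 sets of 5 or 6 rats, 1 rat lay farther from its neighbour than Dixon's 95% critical value allows, as a share of the range of the set. Chance does so in about 1 of 20 sets. For Per3 these were control replicate 3 of D28 (share 0.805), at 4.62 where the others had 3.38 to 3.62, and exposed replicate 6 of D28 (share 0.698), at 5.10 where the others had 3.49 to 3.98. On the well-detected Per3 probe A_64_P119407 the same rats had 6.24 and 7.38, inside the ranges of their groups (5.95 to 7.23 and 6.40 to 7.56). On the Per3 probe A_44_P1106297 they had 5.74 and 3.94, the highest of their groups. For Bhlhe40, control replicate 6 of D0 (share 0.656) had 8.35 and exposed replicate 5 of D0 (share 0.756) had 8.47, each the lowest in a group with an SD of 0.09 and 0.07. No array was left out for this.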

How the results depend on the processing

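Most values kept their side of the threshold. On D0 the count of 2 of 6 genes called fell to 1, Per1, with normexp correction, the deposited table, the probe with the highest mean signal or each probe on its own, and ran from 0 to 2 without 1 array. On D28 the count of 1 was 0 with only the arrays of that day and 2 without the FC limit, and was 1 without any 1 array. For the difference of effects 0 became 2 at an unadjusted p with the FC limit, and was 0 without any 1 array. In exposed rats of D28 against D0 the count of 1 was 0 with only those arrays and 2 at an unadjusted p with the FC limit. In control rats the count of 3 was 2 with normexp or the deposited table, 4 (Per3 added) with probes well above background, the brightest probe, each probe on its own or an unadjusted p with the FC limit, and 3 or 4 without 1 array. Signs turned for Bhlhe41 with its brightest probe, alone or as the highest: 0.149 for the difference of effects, -0.268 in controls and -0.119 in exposed rats between days. They turned for Per3 with A_44_P1106297 on D28 (-0.0812) and with A_44_P407318 in exposed rats between days (0.0859), and for Per1 on D28 with array weights (-0.169) and without 1 array (-0.147 to 0.258). None of these was called either way, and the cause was not tested. The fit of only the arrays compared was not run for the difference of effects, which uses all groups. With the replicate number as a block the counts were 2, 1, 0, 3 and 1 as before, and the numbers shared by groups did not pair the rats (r of deviations -0.30 to 0.46, 7 of 22 pairs over 0.1, and 5 best matched by their own number). Slide as a block, which also left out control replicate 4 of D28, alone on its slide, gave the same counts. Over all genes the calls went from 411 to 221 on D0 and from 174 to 94 on D28 with normexp, to 42 on D28 and from 81 to 28 in exposed rats with only the arrays compared, and to 656 and 303 without the FC limit. At an unadjusted p with the FC limit they were 946, 664, 461, 764 and 567 on D0, on D28, for the difference, in controls and in exposed rats. The 7 genes called for the difference became 14 with normexp, 13 with probes well above background and 12 with an intensity trend. In exposed rats the 81 became 141 by probe and 128 with slides as a block and without that array. Without 1 array the calls in that order were 315 to 439, 111 to 203, 6 to 11, 87 to 198 and 56 to 89. Dim signals limit Per3, with 1 of 3 probes above background throughout.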
